A study of Mus musculus with 36 samples.

Results

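The 10 genes described here encode chaperones and folding enzymes of the endoplasmic reticulum (ER), the compartment in which secreted and membrane proteins are folded, together with XBP1, a transcription factor that raises their expression. They are Hspa5, Hyou1, Dnajb9, Sdf2l1, Hsp90b1, Creld2, Pdia4, Pdia6, Herpud1 and Xbp1, and they were taken by symbol from the probe names in the array files. They make up 10 of the 37325 genes represented on the arrays. Together they had 19 probes, and all 10 genes passed the filter on dim probes, which kept 24251 genes. Hyou1 had 4 probes, Hspa5 and Xbp1 had 3 each, Dnajb9 and Herpud1 had 2 each, and the other 5 genes had 1 each. Every gene was well above background on all 36 arrays.

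RNA was measured in the livers of 36 male C57Bl/6J mice, with 1 single-colour Agilent array per mouse, in 6 groups of 6. CTRL fed and AAKO fed mice ate standard diet freely, CTRL fasted and AAKO fasted mice went without food for 24 h, and CTRL CL316243 and AAKO CL316243 mice were fed and received 3 mg/kg CL316243 by gavage at Zeitgeber time 10 in carboxymethyl cellulose. CL316243 is an agonist of the beta 3 adrenergic receptor, which drives fat breakdown in adipocytes. AAKO mice lack ATGL, the lipase that starts the breakdown of stored triglyceride, in white adipose tissue. The labels do not name the Cre driver or the alleles of the controls. All 6 groups were killed at Zeitgeber time 16. The fed groups carry the label of experiment 2 and the other 4 groups that of experiment 1, so any difference from the fed groups cannot be told apart from a difference between experiments. A gavage is given in the labels for the CL316243 groups only. The design compares the liver responses to fasting and to adipocyte stimulation, with and without the adipocyte lipase.

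The ER folds proteins with the help of HSPA5 (BiP), an HSP70-type chaperone that also holds the ER stress sensors inactive. When unfolded proteins accumulate, the sensors IRE1, ATF6 and PERK start the unfolded protein response: IRE1 splices Xbp1 mRNA, ATF6 is cleaved to a transcription factor, and PERK slows translation and favours ATF4. XBP1 and ATF6 raise chaperone, folding and degradation genes, and ATF4 raises genes of amino acid supply and cell death. Hepatocytes secrete most plasma proteins, and splicing of Xbp1 mRNA in liver is known to rise on feeding.

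Levels are on a log2 scale on which 0 stands for the 75th percentile of brightness on the array in question, and they are not compared between genes. A gene is said to be called where limma gave an adjusted p under 0.05 over all 24251 genes. The hepatocyte markers fixed for the check of tissue, such as Alb, were well above background on all arrays (8 of 8). Between 33130 and 37200 probes were well above background on an array. On the first principal component of all tested genes, CTRL fasted replicate 2 lay at 81.3, the other 5 arrays of its group lay between 16.8 and 29.2, and AAKO fasted arrays lay between 103 and 111. Some results on CTRL fasted mice are therefore also given without that array. The deletion lies in another tissue, so liver Pnpla2 (the gene of ATGL) does not check the labels. Its mean ± SD was 4.43 ± 0.18 in CTRL fed, 3.98 ± 0.44 in AAKO fed, 6.01 ± 0.47 in CTRL fasted, 7.30 ± 0.12 in AAKO fasted, 4.62 ± 0.16 in CTRL CL316243 and 5.26 ± 0.39 in AAKO CL316243 (n = 6 each). In whole liver, fewer cells of a type and less RNA per cell cannot be told apart.

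XBP1 and ATF6 act at promoters, and the promoter sequences of the set are shown as a description. The part of these sequences in the expression results was not tested. RefSeq windows on GRCm38.p6, 250 bases before to 50 bases after the annotated start, matched 9 of the 10 genes; Hyou1 is named only. Exact matches were sought on both strands to the ER stress element ERSE (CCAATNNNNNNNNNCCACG, an NF-Y box and an ATF6 site with 9 bases between them), to ERSE-II (ATTGGNCCACG) and to the UPRE core TGACGTGG. ERSE was found in 4 of the 9 windows (Hspa5, Hsp90b1, Pdia6 and Creld2) and in 39 of all 32851 windows (0.119%). Hsp90b1 held 2 copies, on opposite strands. ERSE-II was found in 1 of the 9 windows, Herpud1, and in 0.0365% of all windows. No UPRE core lay in the 9 windows (0.676% of all). Of the parts taken alone, which overlap the whole elements, CCAAT lay in 8 of 9 windows (37.4% of all) and CCACG in 8 of 9 (32.8% of all), with neither in the Xbp1 window. The 250 bases before the start of the 5 genes with a whole element are given 5′ to 3′ with the fixed letters of ERSE or ERSE-II in capitals. In Creld2 and in the second copy of Hsp90b1 the element lies on the opposite strand and is read there as its reverse complement:
Hspa5, chr2:34771840-34772089, plus strand: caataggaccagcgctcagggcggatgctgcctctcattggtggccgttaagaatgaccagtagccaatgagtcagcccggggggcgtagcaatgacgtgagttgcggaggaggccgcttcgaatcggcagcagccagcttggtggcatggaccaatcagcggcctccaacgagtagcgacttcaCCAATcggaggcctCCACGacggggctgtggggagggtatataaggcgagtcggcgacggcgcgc
Hsp90b1, chr10:86705445-86705694, minus strand: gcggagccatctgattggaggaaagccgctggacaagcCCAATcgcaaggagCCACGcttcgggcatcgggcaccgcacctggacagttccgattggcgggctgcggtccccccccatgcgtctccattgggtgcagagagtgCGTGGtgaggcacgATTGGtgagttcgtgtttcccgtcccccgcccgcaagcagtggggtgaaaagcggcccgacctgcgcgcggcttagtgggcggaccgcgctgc
Creld2, chr15:88819396-88819645, plus strand: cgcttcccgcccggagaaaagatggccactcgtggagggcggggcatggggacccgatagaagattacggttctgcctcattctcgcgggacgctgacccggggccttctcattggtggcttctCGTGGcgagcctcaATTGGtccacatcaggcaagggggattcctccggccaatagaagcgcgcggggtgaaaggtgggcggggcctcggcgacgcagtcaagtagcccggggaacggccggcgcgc
Pdia6, chr12:17266339-17266588, plus strand: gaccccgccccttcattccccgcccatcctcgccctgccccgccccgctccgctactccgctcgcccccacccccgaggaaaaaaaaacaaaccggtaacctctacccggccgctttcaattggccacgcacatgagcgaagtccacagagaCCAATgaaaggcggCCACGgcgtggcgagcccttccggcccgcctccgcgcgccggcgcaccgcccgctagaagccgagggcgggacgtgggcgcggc
Herpud1, chr8:94386179-94386428, plus strand: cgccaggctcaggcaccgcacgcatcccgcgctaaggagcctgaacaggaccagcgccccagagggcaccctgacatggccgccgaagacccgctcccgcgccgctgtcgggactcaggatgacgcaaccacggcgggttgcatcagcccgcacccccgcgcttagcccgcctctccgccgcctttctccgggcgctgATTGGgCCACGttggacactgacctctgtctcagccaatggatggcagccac

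Counted from the annotated start, the upstream end of ERSE stood at -65 in Hspa5, at -212 and -107 in Hsp90b1, at -126 in Creld2 and at -98 in Pdia6. ERSE-II of Herpud1 began at -52. A match describes these letters only, and binding was not measured. The shares over all windows are given as a description, and enrichment of the elements in these genes was not tested.

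**Figure D1:**
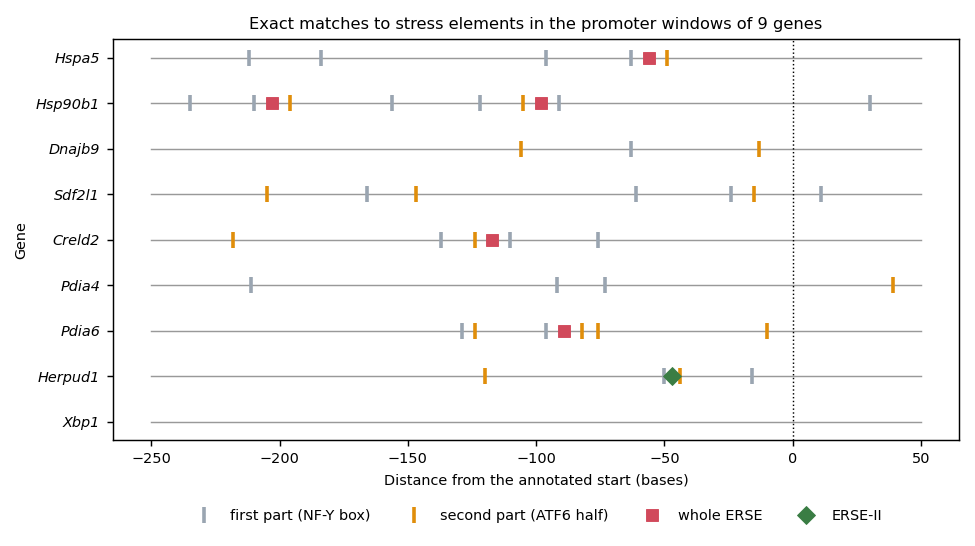
Exact matches in the promoter windows of 9 genes, plotted by distance from the annotated start in bases; grey and orange ticks are the parts of ERSE, red squares whole ERSE and the green diamond ERSE-II. Whole ERSE lay in 4 windows, ERSE-II in that of Herpud1, and the Xbp1 window held no match.

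Across the 6 groups, 8 of the 10 genes had their highest mean in AAKO CL316243, and each gene was lowest in a fasted group (5 in CTRL fasted and 5 in AAKO fasted). For Pdia6 the means of AAKO CL316243 and AAKO fed were equal at 2 decimals (7.23), and for Hspa5 they were 8.24 and 8.19, both gaps being smaller than the SD of either group. Hsp90b1, Sdf2l1, Creld2 and Hyou1 also led the next group, a fed group, by less than the larger SD of the pair (gaps of 0.11 to 0.26). Only for Xbp1 and Dnajb9 was the gap larger than that SD. The exceptions at the upper end were Herpud1, highest in AAKO fasted, and Pdia4, highest in AAKO fed. The gap between the highest and the lowest group mean was widest for Sdf2l1, at 3.24 on the log2 scale (9.45-fold), followed by Creld2 at 3.01 (8.07-fold). It was narrowest for Hsp90b1, at 1.26 (2.39-fold). The 2 fed groups overlapped for every gene. With the 6 groups ordered by mean, most neighbours in the order overlapped: of 5 neighbouring pairs per gene, 0 stood apart for Sdf2l1, 2 for Hsp90b1 and Creld2, and 1 for each other gene.

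**Figure D2:**
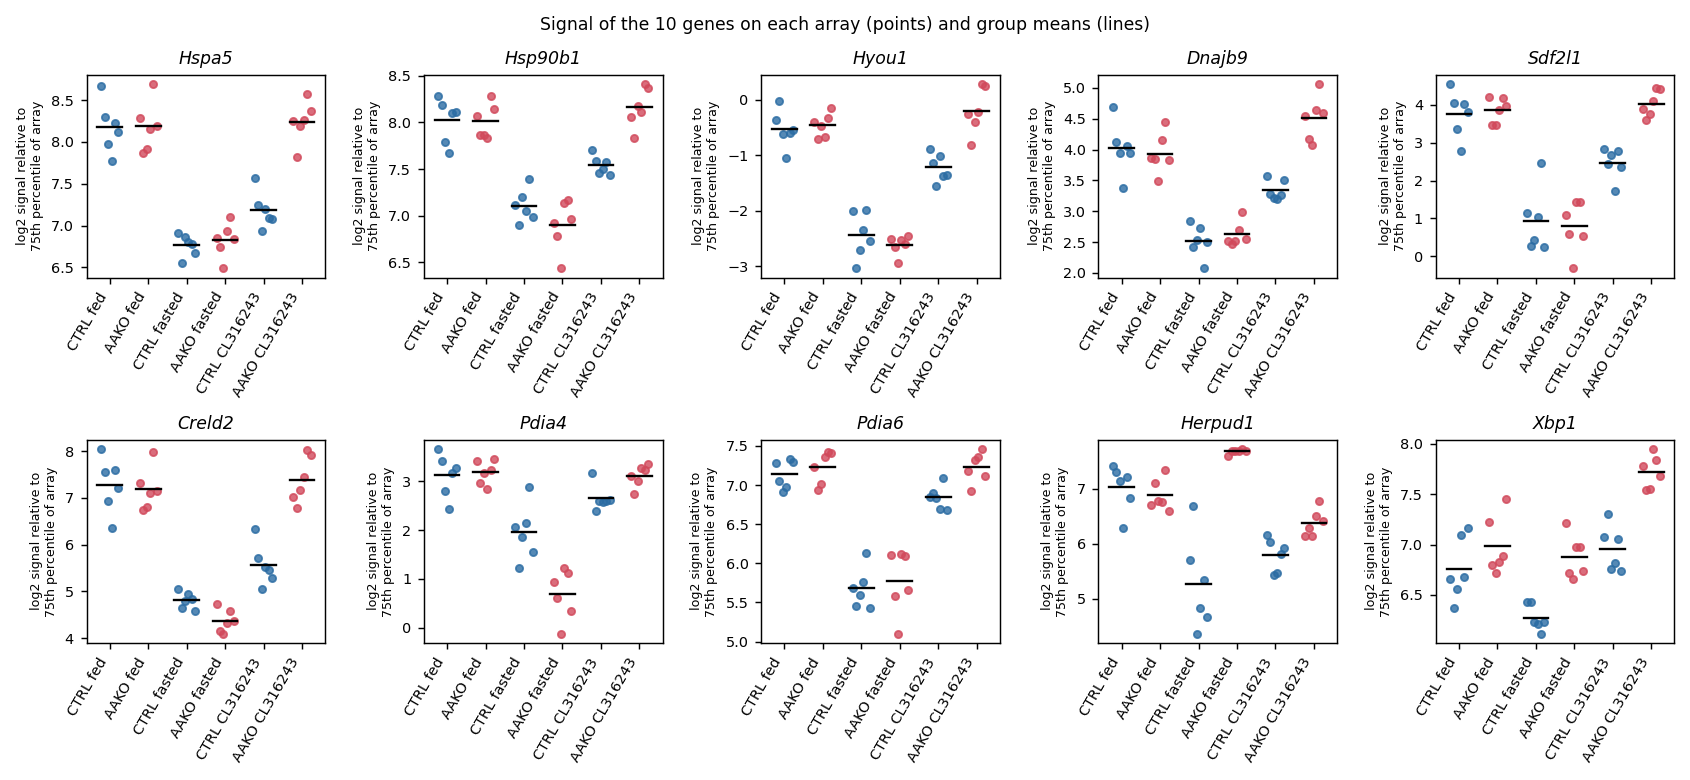
Level of the 10 genes on each of the 36 arrays (log2, 0 being the array's 75th percentile), by group (blue CTRL, red AAKO; lines are group means, n = 6). For 8 genes the AAKO CL316243 mean is highest, level with AAKO fed for Pdia6. It leads the next group by more than the larger SD of the pair only for Xbp1 and Dnajb9. Herpud1 is highest in AAKO fasted with all 6 arrays between 7.60 and 7.73, and Pdia4 is lowest there.

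In control mice, fasting was accompanied by lower expression of the whole set. All 10 genes were called lower in CTRL fasted than in CTRL fed livers, against 24.0% of all genes tested called lower and 19.8% called higher. The median log2 fold change of the 10 was -1.48, beside -0.05 over all genes. For 7 of the 10 every fasted array lay below every fed array, which held for 12.7% of all genes. With the authors' own value table in place of the scanner values, 56.2% of the called genes were higher in place of 45.1%, and all 10 genes were again called lower.

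Among the HSP70 machinery, Hspa5 (probe on mm9 chr2:34631913-34631972) ranged over 7.77, 8.17 and 8.67 in CTRL fed livers (lowest, median, highest) and over 6.56, 6.79 and 6.91 in CTRL fasted livers. The ranges stood well apart. The difference was -1.41 ± 0.14 (SE; 2.66-fold lower, adjusted p = 7.97e-10). Sdf2l1 (chr16:17130426-17130485), a partner of HSPA5 and its J-domain proteins, ranged over 2.77, 3.91 and 4.56 in CTRL fed and over 0.23, 0.73 and 2.47 in CTRL fasted, where replicate 5 stood above the rest without reaching the fed range. It fell by 2.83 ± 0.31 (7.14-fold, adjusted p = 7.07e-09), the largest change of the 10. Dnajb9 (ERdj4; chr12:45307071-45307129), a J-domain protein that restrains IRE1, fell by 1.51 ± 0.17. Hyou1 (chr9:44199084-44199143), the exchange factor of HSPA5, fell by 1.90 ± 0.18, and by 1.14 with normexp background correction, which offsets dim signals.

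Hsp90b1 (GRP94; chr10:86153693-86153752), the ER form of HSP90, changed less and fell by 0.91 ± 0.12. Creld2 (chr15:88656997-88657056), an ER stress-inducible protein with isomerase activity, ranged over 6.36, 7.38 and 8.04 in CTRL fed and over 4.59, 4.81 and 5.04 in CTRL fasted. No array overlapped, and the fall was 2.48 ± 0.24 (5.56-fold, adjusted p = 5.52e-10). The disulfide isomerases Pdia6 (chr12:17291070-17291129) and Pdia4 (chr6:47746516-47746575) fell by 1.46 ± 0.14 and 1.17 ± 0.21. For Pdia4 the fasted and fed ranges overlapped, and within wash batch 1 alone its fall was 0.78 (adjusted p = 0.0760).

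Herpud1 (chr8:96919117-96919176), a membrane protein that recruits the ubiquitin ligase of ER-associated degradation, ranged over 6.30, 7.18 and 7.42 in CTRL fed and over 4.36, 5.08 and 6.70 in CTRL fasted. The top fasted value was replicate 2, the array that stood apart on the first component, and it alone fell within the fed range. The fall was 1.77 ± 0.24 with it and 2.05 without it. Xbp1 (chr11:5425816-5425875) changed least, from a median of 6.67 (6.37 to 7.17) to 6.23 (6.12 to 6.43), a fall of 0.48 ± 0.13 (adjusted p = 0.00218). Its fall did not pass the threshold within wash batch 2 alone (-0.48, adjusted p = 0.0648). All 3 Xbp1 probes list both RefSeq transcripts, so spliced and unspliced mRNA are not distinguished.

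In AAKO mice the fasted livers were again low for most of the set, with a pair of exceptions. Between AAKO fasted and AAKO fed, 8 genes were called lower (36.1% of all genes) and Herpud1 was called higher (27.5% of all genes). For the same 8 all 6 fasted arrays lay below all fed arrays (23.9% of all genes). The falls ran from 1.11 ± 0.12 for Hsp90b1 to 3.07 ± 0.31 for Sdf2l1. Pdia4 was at -0.12, 0.78 and 1.22 in AAKO fasted (lowest, median, highest) and at 2.84, 3.21 and 3.46 in AAKO fed, a fall of 2.50 ± 0.21 (5.64-fold). Xbp1 did not pass the test, at -0.11 ± 0.13 (adjusted p = 0.482).

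Herpud1 ran against the 8 genes called lower. In AAKO fasted livers it ranged over 7.60, 7.70 and 7.73, with an SD of 0.04, and in AAKO fed livers over 6.59, 6.77 and 7.35. Every fasted array lay above every fed one. The rise was 0.80 ± 0.24 (1.74-fold, adjusted p = 0.00442), and within wash batch 2 alone it was 0.87 with an adjusted p of 0.0543. Its 2 probes agreed, at 0.80 and 0.88. The comparison of fasted with fed mice shares the fed samples with the CL316243 comparison of the same genotype.

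After CL316243 the genotypes parted. In control mice, 7 of the 10 genes were called lower after CL316243 than in fed livers (12.7% of all genes lower, 10.5% higher): Hspa5, Hsp90b1, Dnajb9, Sdf2l1, Herpud1, Creld2 and Hyou1. The falls ran from 0.48 ± 0.12 for Hsp90b1 to 1.72 ± 0.24 for Creld2. The arrays of 3 genes (Hspa5, Herpud1 and Creld2) did not overlap, as for 6.58% of all genes. Pdia4 (-0.46 ± 0.21), Pdia6 (-0.30 ± 0.14) and Xbp1 (0.20 ± 0.13) did not pass. Within wash batch 1 alone 3 of the 10 were called. Within batch 2 alone 7 were, with Pdia6 in place of Hyou1.

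In AAKO mice no gene of the set was called lower after CL316243 (15.9% of all genes were), and Xbp1 and Dnajb9 were called higher (15.5% of all genes were). That count of higher genes is near the share of all genes and shows nothing particular to the set. Herpud1 passed as lower when only these 2 groups were fitted (-0.53, adjusted p = 0.0223). Xbp1 rose from 6.72, 6.85 and 7.45 in AAKO fed to 7.54, 7.73 and 7.95 in AAKO CL316243, with no overlap, a rise of 0.76 ± 0.13 (1.70-fold, adjusted p = 2.01e-05). Dnajb9 rose by 0.60 ± 0.17 (adjusted p = 0.00673). The other 8 genes lay between -0.48 ± 0.24 (Herpud1) and 0.26 ± 0.18 (Hyou1). Within wash batch 2, with 2 to 3 arrays a group, neither rise passed (0.59 and 0.51, adjusted p = 0.0907 and 0.187), and within batch 1 only that of Xbp1 did.

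**Figure D3:**
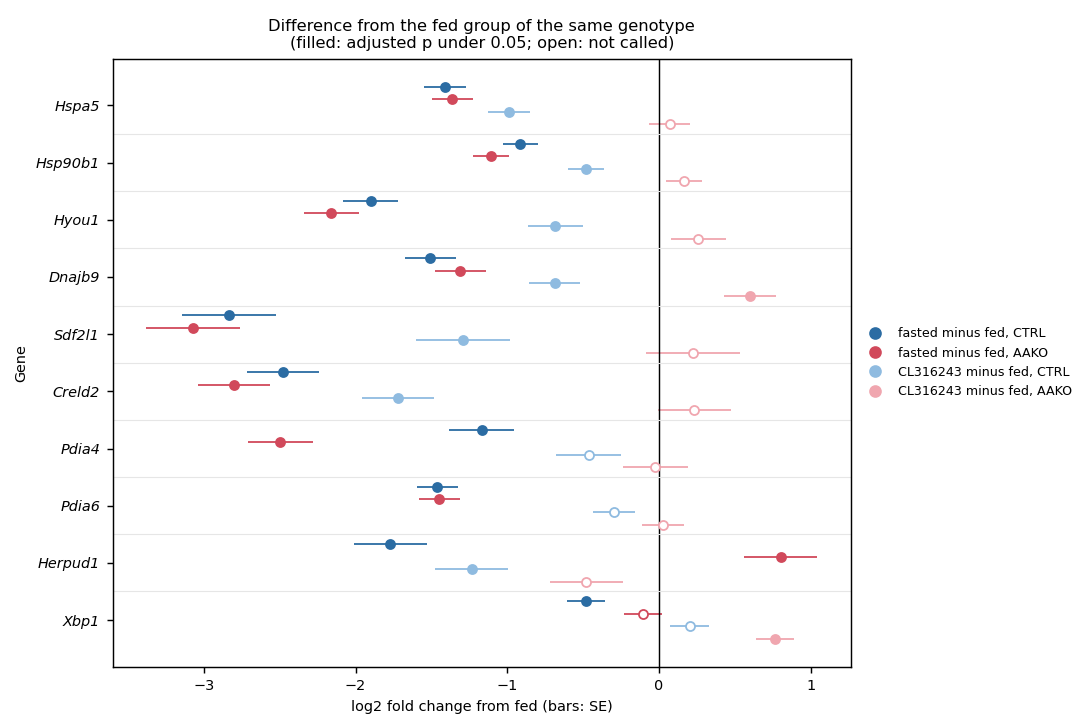
Difference of each gene from the fed group of the same genotype, as log2 fold change with its SE (dark colours fasted, light colours CL316243; filled points called at adjusted p under 0.05). Fasted points lie left of 0 in both genotypes except Herpud1 in AAKO, at 0.80, while CL316243 points lie left of 0 for 9 genes in CTRL and between -0.48 (Herpud1) and 0.76 (Xbp1) in AAKO.

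The fasted and CL316243 groups lie in the same experiment. In CTRL mice 9 of 10 genes were called lower in fasted than in CL316243 livers (19.3% of all genes lower, 17.8% higher), and for 7 the arrays did not overlap (9.71% of all genes). The differences ran from -0.42 ± 0.14 for Hspa5 to -1.54 ± 0.31 for Sdf2l1. The call of Hspa5 was lost without CTRL CL316243 replicate 1 (-0.35, adjusted p = 0.0506). Herpud1, at -0.54 ± 0.24, did not pass with all arrays (adjusted p = 0.0802), and passed without CTRL fasted replicate 2 (-0.82, adjusted p = 0.00150) and without CTRL CL316243 replicate 3 (-0.63, adjusted p = 0.0491). Within wash batch 1 alone 5 of the 10 were called. With the authors' value table, 59.9% of the called genes were higher in place of 48.0%.

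In AAKO mice, 9 genes were called lower in the fasted livers, with no overlap of arrays for any of them (34.0% of all genes called lower, 21.0% without overlap), and Herpud1 was called higher (26.0% of all genes). The differences reached -3.29 ± 0.31 for Sdf2l1 (9.79-fold lower) and -3.04 ± 0.24 for Creld2 (8.20-fold lower). Herpud1 was 1.28 ± 0.24 higher (2.43-fold, adjusted p = 3.10e-05), and its lowest AAKO fasted array (7.60) stood above the highest AAKO CL316243 array (6.77). Among the called genes, 43.3% were higher in the fasted livers, or 58.1% with the authors' value table and 32.7% with normexp correction. All 10 genes stayed called with their direction under both.

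In fed livers no genotype difference passed the test for the set. None of the 10 genes was called between AAKO fed and CTRL fed, where limma called 0.0783% of all genes (19), and none of the 10 reached an unadjusted p under 0.05. The estimates ran from -0.15 ± 0.24 (Herpud1) to 0.23 ± 0.13 (Xbp1, adjusted p = 0.781). Of the 19 called genes 52.6% were higher, or 66.7% of those called with the authors' value table.

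After CL316243 the genotypes differed. Of the 10 genes, 8 were called higher in AAKO than in CTRL livers (12.9% of all genes higher, 11.6% lower), and for 7 of them the arrays did not overlap (5.65% of all genes). All 10 estimates were positive, with a median of 0.91 beside 0.03 over all genes. With the authors' value table, 42.3% of the called genes were higher in place of 52.7%, and the same 8 genes were called higher.

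Creld2 differed most, at 5.04, 5.49 and 6.34 in CTRL CL316243 against 6.79, 7.31 and 8.01 in AAKO CL316243. The difference was 1.85 ± 0.24 (3.60-fold, adjusted p = 7.45e-07) and came to 1.87 within wash batch 1 and 1.75 within batch 2. Sdf2l1 stood at 1.73, 2.56 and 2.85 against 3.60, 4.00 and 4.44, a difference of 1.62 ± 0.31 (3.07-fold; 1.77 and 1.31 within the batches). Neither gene overlapped between genotypes.

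Hspa5 stood at 6.94, 7.15 and 7.57 in CTRL CL316243 and at 7.82, 8.25 and 8.57 in AAKO CL316243. The difference of 1.07 ± 0.14 (2.10-fold, adjusted p = 8.00e-07) was alike within the batches (1.07 and 1.03), and all 3 probes gave between 1.07 and 1.19. The HSP70 partners moved with it: Dnajb9 was higher by 1.20 ± 0.17 and Hyou1 by 1.03 ± 0.18. All 4 Hyou1 probes gave between 1.03 and 1.69.

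Xbp1 stood at 6.74, 6.93 and 7.30 in CTRL CL316243 and at 7.54, 7.73 and 7.95 in AAKO CL316243 (0.79 ± 0.13, 1.73-fold, adjusted p = 1.88e-05), with all 3 probes between 0.79 and 0.99. Hsp90b1 was higher by 0.63 ± 0.12. Pdia6 was higher by 0.41 ± 0.14 (adjusted p = 0.0278) with overlapping arrays, and this call was lost in 5 of the 12 fits that left out 1 array: those without AAKO CL316243 replicate 4 or 5 or without CTRL CL316243 replicate 3, 4 or 6 (0.35 to 0.40, adjusted p between 0.0506 and 0.0779). Within wash batch 1 it was 0.27 (adjusted p = 0.372). Herpud1 (0.60 ± 0.24, adjusted p = 0.0676) and Pdia4 (0.50 ± 0.22, adjusted p = 0.0908) did not pass. Herpud1 did without AAKO CL316243 replicate 3 (0.68, adjusted p = 0.0485).

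In fasted livers fewer genes of the set were called between genotypes than after CL316243. Between AAKO fasted and CTRL fasted 3 of the 10 genes were called: Herpud1 and Xbp1 higher (22.0% of all genes) and Pdia4 lower (27.2% of all genes). These 3 were also the genes of the set whose arrays did not overlap in either direction, as for 21.2% of all genes. Such counts lie near or below the shares of all genes and show nothing particular to the set. The 3 genes are given as single results. The other 7 genes lay between -0.43 ± 0.24 (Creld2, adjusted p = 0.137) and 0.11 ± 0.17 (Dnajb9). Creld2 passed when only the 2 groups entered the fit (-0.43, adjusted p = 0.00589). Pdia6 was at -0.27 within wash batch 1 and, as a call, at 0.47 within batch 2 (adjusted p = 0.00728).

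Herpud1 stood at 4.36, 5.08 and 6.70 in CTRL fasted against 7.60, 7.70 and 7.73 in AAKO fasted. It was 2.42 ± 0.24 higher (5.36-fold, adjusted p = 9.35e-10), and 2.70 higher without CTRL fasted replicate 2. Within the wash batches the difference was 2.91 and 1.93, and the second probe gave 2.51. Xbp1 stood at 6.12, 6.23 and 6.43 against 6.65, 6.85 and 7.21, and was 0.60 ± 0.13 higher (1.52-fold, adjusted p = 0.000166; 0.51 and 0.70 within the batches). Its other probes gave 0.61 and 0.59.

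Pdia4 stood at 1.22, 1.96 and 2.88 in CTRL fasted against -0.12, 0.78 and 1.22 in AAKO fasted, and the groups met at 1.22. The difference was -1.27 ± 0.21 (2.41-fold lower, adjusted p = 1.01e-05). The batches differed in size for this gene, with -1.82 in batch 1 and -0.71 in batch 2. Without CTRL fasted replicate 2 it was -1.44. One of the 4 Hyou1 probes stood apart here: it lies upstream of the others (chr9:44193855-44193914), lists no RefSeq transcript, its mean over the arrays was the lowest of the 4, and it gave -1.18 where the other 3 gave -0.11 to -0.18. With the mean over all 4 probes Hyou1 passed as lower (-0.41, adjusted p = 0.0472).

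**Figure D4:**
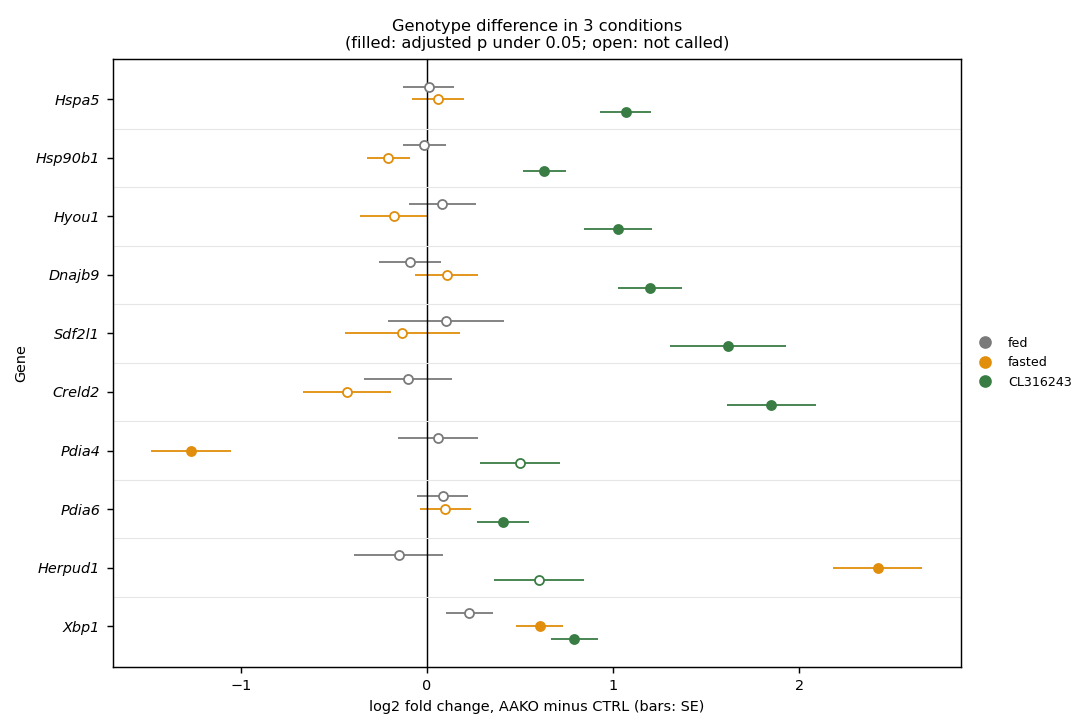
Genotype difference of each gene, AAKO minus CTRL, as log2 fold change with its SE in fed (grey), fasted (orange) and CL316243-treated livers (green); filled points were called at adjusted p under 0.05. Green points lie right of 0 for all 10 genes, grey points lie near 0, and orange points stand apart from 0 for Herpud1 at 2.42, Xbp1 at 0.60 and Pdia4 at -1.27.

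Interaction contrasts test whether the genotype difference itself changed with the condition, and an experiment effect common to both genotypes cancels in them. For CL316243 against fed, 7 of the 10 genes were called, all with a larger AAKO-minus-CTRL difference after CL316243 (6.20% of all genes; 4.64% were called the other way). Creld2 led with 1.95 ± 0.34 (adjusted p = 0.000172), followed by Sdf2l1 with 1.52 ± 0.44, Dnajb9 with 1.29 ± 0.24 and Hspa5 with 1.06 ± 0.19. The call of Xbp1 (0.56 ± 0.18, adjusted p = 0.0368) was lost in 13 of the 24 fits that left out 1 array, with adjusted p up to 0.0792: those without AAKO CL316243 replicate 1, 4, 5 or 6, AAKO fed replicate 2, 3, 4 or 5, CTRL CL316243 replicate 3, 4 or 6, or CTRL fed replicate 4 or 6. Within wash batch 1 alone none of the 7 passed, with estimates from 0.51 to 1.52 and adjusted p between 0.103 and 0.373, and within batch 2 alone 4 of the set passed. With the authors' value table, 44.1% of called genes were higher in place of 57.2%.

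For fasting against fed, Herpud1 (2.57 ± 0.34, adjusted p = 7.50e-07; 15.1% of all genes higher) and Pdia4 (-1.33 ± 0.30, adjusted p = 0.000909; 18.6% of all genes lower) were called. Counts of this size lie below the shares of all genes and show nothing particular to the set. Pdia4 was at -2.03 within wash batch 1 and at -0.62 (adjusted p = 0.253) within batch 2. Pdia6, at 0.01 ± 0.19 with all arrays, was at -0.56 within batch 1 and passed at 0.58 within batch 2 (adjusted p = 0.0336). Xbp1, at 0.38 ± 0.18 (adjusted p = 0.104), passed without AAKO fed replicate 6 (0.46, adjusted p = 0.0418).

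Within experiment 1, the genotype difference in the fasted state was set directly against that after CL316243. It was larger in the fasted state for Herpud1 (1.82 ± 0.34; 13.4% of all genes) and smaller or opposite for 7 genes (18.5% of all genes), from -0.84 ± 0.17 for Hsp90b1 to -2.28 ± 0.34 for Creld2. Xbp1 (-0.19 ± 0.18, adjusted p = 0.467) and Pdia6 (-0.31 ± 0.19, adjusted p = 0.242) did not pass. Within wash batch 2 alone 2 of the 10 were called, and without CTRL fasted replicate 2 again 8. With the authors' value table, 54.9% of called genes were higher in place of 42.0%.

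Genes of the same pathways that are not in the set were followed in 5 lists. After CL316243, most called genes of these lists were higher in AAKO. Of 17 tested ER folding factors 10 were called higher in AAKO and 0 lower, with a median log2 fold change of 0.27. Of 18 genes of ER translocation and COPII export 16 were higher and 1 was lower (median 0.45), and of 18 genes of ER-associated degradation 12 were higher and 1 was lower (median 0.28). The PERK and ATF4 list had 5 of 10 higher and 0 lower, and the sensors had 4 of 7 higher and 1 lower. Over all genes tested 12.9% were called higher and 11.6% lower, and the median was 0.03. In AAKO against CTRL in fed livers 0 of the 70 genes were called by limma (0.0783% of all genes), and 1 had an unadjusted p under 0.05.

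Between fasted genotypes, where 22.0% of all genes were called higher in AAKO and 27.2% lower, the lists did not move one way. Of the folding factors 1 was called higher and 9 were lower in AAKO. Calr, a lectin-type chaperone of glycoproteins, was at -0.82 ± 0.17, Manf, a secreted HSPA5 partner, at -0.58 ± 0.22 and Txndc5, a disulfide isomerase, at -0.51 ± 0.10. The PERK and ATF4 list had 6 of 10 higher and 1 lower. Chac1, which breaks down glutathione and is an ATF4 target, was 3.82 ± 0.50 higher (14.1-fold, adjusted p = 1.55e-07), with group means ± SD of 0.56 ± 1.29 in CTRL fasted and 4.38 ± 0.75 in AAKO fasted. Atf3, a stress-induced repressor, was 3.17 ± 0.40 higher (9.03-fold). Atf5 was lower (-1.59 ± 0.15).

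Of the sensors and their proteases, 3 of 7 were higher and 1 was lower in AAKO fasted livers, beside 22.0% and 27.2% of all genes. Atf6, the sensor cleaved in the Golgi, was higher by 0.78 ± 0.09, and Mbtps2, a protease that cleaves it, by 0.41 ± 0.08. Creb3l3, a relative of Atf6 that responds to fasting, was at -0.79 ± 0.08. It was also lower in AAKO after CL316243 (-0.97 ± 0.08), where Atf6 was again higher (0.59 ± 0.09). Both also differed in the genotype by fasting interaction (Atf6 0.89 ± 0.13, Creb3l3 -0.63 ± 0.11).

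In AAKO fasted livers, the degradation list (5 of 18 higher, 5 lower) and the translocation and export list (3 of 18 higher, 5 lower) had shares near those of all genes, 22.0% and 27.2%, so these counts show nothing particular to them. The genes of largest change in each are given as single results. Sel1l, the adaptor of the ligase to which HERPUD1 binds, was at -0.56 ± 0.12, while Faf2 and Ube2j1, a VCP recruiter and a ubiquitin-conjugating enzyme, were both at 0.55 (SE 0.08 and 0.07). Among the translocation and export genes, Sar1b, the COPII GTPase, was at -0.88 ± 0.09, Sec23b, a coat subunit, at -0.66 ± 0.13, and Sec61a1, the translocation channel, at 0.47 ± 0.10. With fasting in CTRL mice, 45 of the 70 genes were called lower (24.0% of all genes) and 9 higher (19.8% of all genes). All 17 folding factors were lower.

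**Figure D5:**
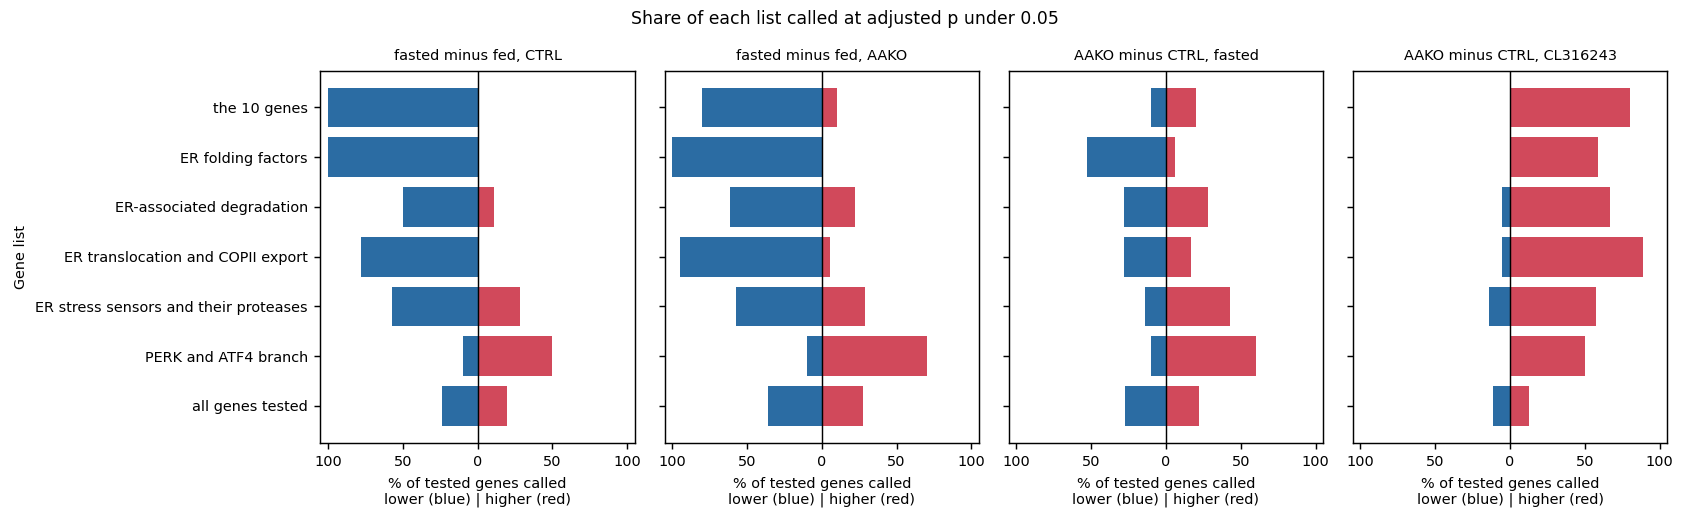
Share of the tested genes of each list called lower (blue, leftward) or higher (red, rightward), in percent, for the 10 genes, 5 pathway lists and all 24251 genes, in 4 comparisons. With fasting all 17 folding factors are lower in both genotypes, and of the 10 genes 10 are lower in CTRL and 8 in AAKO. Between fasted genotypes 9 of 17 folding factors are lower and 6 of 10 genes of the PERK and ATF4 list are higher, and after CL316243 far more genes of the lists are higher than lower in AAKO.

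Over the 36 arrays, 35 of the 45 pairs had a Pearson r above 0.5, with a median of 0.89, and the lowest pair was Pdia4 with Herpud1 (-0.20). These coefficients hold the group differences. After subtraction of group means the median was 0.49, 22 of 45 pairs stayed above 0.5, and Xbp1 with Herpud1 was lowest (-0.02). Among all tested genes outside the set, the 5 most like Hspa5 over the 36 arrays were Manf (r = 0.97), Syvn1 (0.97), Slc17a9 (0.96), Dnajc3 (0.96) and Uap1 (0.95). Syvn1 encodes the ubiquitin ligase of ER-associated degradation and Dnajc3 an HSP70 co-chaperone. For deviations from group means the 5 were Manf (0.86), Slc17a9 (0.86), Syvn1 (0.85), Hspa13 (0.83) and Tmed3 (0.79).

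The genes most like Xbp1 were others: Tifa (r = 0.92), Steap4 (0.91), Ikzf5 (0.91), Map7d1 (0.91) and Stap2 (0.89). All 5 were called higher in AAKO than in CTRL after CL316243 (12.9% of all genes), with Tifa, an adaptor of NF-kappaB signalling, at 3.37 ± 0.39. In fasted livers 4 of them were called higher in AAKO (22.0% of all genes), with Stap2 at 0.22 ± 0.10 (adjusted p = 0.0795). The coefficients share the arrays and the group differences, and the genes were picked by them. The calls of these genes follow in part from that choice. Coefficients and calls are given as a description.

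Markers of other cell types moved as follows beside these results. After CL316243, 12.9% of all genes were called higher in AAKO and 11.6% lower. Plasma and acinar cells are rich in ER chaperones. Of the B and plasma cell list 0 of 6 tested genes were called by limma between genotypes after CL316243, and 0 had an unadjusted p under 0.05. Its log2 summed signal ran from -0.31 to 0.33 in CTRL CL316243 and from -0.46 to 0.18 in AAKO CL316243, and Tnfrsf17, a plasma cell receptor, was well above background on 0 of 36 arrays. Of the acinar list 4 of 8 genes were not tested, 1 of the other 4 was called higher, and Pnlip was well above background on 0 of 36 arrays. The hepatocyte list had 3 of 8 genes higher in AAKO after CL316243, and its summed signal ran from 12.4 to 12.7 in CTRL and from 12.6 to 12.8 in AAKO. The part of the plasma cell, acinar and hepatocyte lists in the genotype differences after CL316243 was not tested.

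Between fasted genotypes, where 22.0% of all genes were called higher in AAKO and 27.2% lower, the summed signals of 2 lists stood apart. That of stellate cells and fibroblasts ran from 6.59 to 6.92 in CTRL fasted and from 6.92 to 7.37 in AAKO fasted, just without overlap (2 of 7 genes called higher in AAKO). That of T and NK cells ran from 6.02 to 6.36 in CTRL fasted and from 5.49 to 5.74 in AAKO fasted (2 of 5 genes called lower). Each of these 2 sums mostly follows the brightest marker of its list. By mean over the arrays these were Dcn (6.12, next Colec11 at 3.47) and Cd4 (5.56, next Cd3e at 1.75). Neutrophil markers were called higher in AAKO for 3 of 7 genes, with overlapping sums of 1.78 to 6.24 and 3.39 to 6.90. The part of these lists in the results on Herpud1, Xbp1 and Pdia4 was not tested. Endothelial markers were higher in AAKO for 3 of 7 genes in fasted livers and for 2 of 7 in CL316243-treated livers (12.9% of all genes). Their summed signal ran from 4.64 to 5.58 in CTRL CL316243 and from 5.22 to 5.80 in AAKO CL316243, and their part in the genotype differences was not tested.

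Kupffer cell markers were lower than in fed livers of the same genotype for 3 of 8 genes in CTRL fasted, 5 in AAKO fasted, 5 in CTRL CL316243 and 7 in AAKO CL316243. In the same order, 24.0%, 36.1%, 12.7% and 15.9% of all genes were called lower. Their summed signal ran from 5.82 to 7.01 in CTRL fed and from 6.51 to 7.33 in AAKO fed, from 5.29 to 6.96 in CTRL fasted and from 4.61 to 6.87 in AAKO fasted, and from 4.68 to 6.35 in CTRL CL316243 and from 5.72 to 6.33 in AAKO CL316243. Endothelial markers were lower than in fed livers for 6 of 7 genes in CTRL CL316243 and for 4 in AAKO CL316243 (12.7% and 15.9% of all genes). The summed acinar signal was lower in fasted than in fed livers without overlap, at 4.00 to 4.42 against 5.09 to 5.55 in CTRL and 4.29 to 4.71 against 5.24 to 5.57 in AAKO. That sum mostly follows the brightest marker of its list, Cela1 (mean over the arrays 4.93, next Cela2a at 1.48). The part of these 3 lists in the differences from fed livers was not tested.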

How the data were processed

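RNA of 36 livers was measured on Agilent single-colour arrays. The scanner files hold spot intensity values that the authors obtained with Agilent Feature Extraction 10.10.1.1, per the submitters' processing notes and the file headers; background and a trend within the array were already removed from the processed signal intensity. The authors also deposited a value table on a log2 scale, whose scale and direction were found by setting its columns against the scanner values: each of the 36 columns matched its own array best (r 0.999 to 1.00), with the same sorted values within a group and column medians from 6.88 to 7.01. Columns of a group thus share their distribution, while the groups differ in theirs. Calls and shares called higher with the authors' value table may also reflect this scaling within groups. The probe filter of that table was not given in the sources used here.

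Spots marked as outliers were left out (0.127%), spots of a probe averaged, and log2 processed signal was taken minus that of the array's 75th percentile. Each gene had its probe of highest mean; genes well above background on at least 5 of 6 arrays of a group were tested. All 36 arrays entered a single limma 3.58.1 fit (R 4.3.3) with 6 group means and wash batch, moderated by eBayes, two-sided, with Benjamini-Hochberg adjustment over 24251 genes. Nothing says that the mice of a group came from separate litters or cages, so p-values measure the spread between mice only. The number of arrays limits precision.

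Genes were named by rule: the 10 genes throughout; from each pathway list the 3 called genes of largest change between fasted genotypes and 2 in the interaction with fasting; the 5 genes most like Hspa5, Xbp1 or the deviations of Hspa5; markers by counts. Summed signals of marker lists are log2 of summed linear values. The 10 genes, the lists and the tests were chosen with earlier results of these data known. The fit was tested on simulated data. Promoters come from RefSeq. Figures were drawn with matplotlib 3.10.9 in Python 3.11.15.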

Additional observations from a re-analysis of the deposited data

Results flagged for a closer look

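Among 60 sets of 6 arrays (10 genes in 6 groups), 2 had 1 array far from the others by Dixon's criterion, which chance alone reaches in about 1 of 20 sets. Pdia4 in CTRL CL316243 replicate 1 was at 3.16, with the next array at 2.62. Herpud1 in AAKO fasted replicate 1 was at 7.60, with the next at 7.69, in a group whose whole range was narrow.

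The genotype difference changed with the condition for several genes by limma's interaction contrasts. From fed to fasted it changed by 2.57 for Herpud1 and by -1.33 for Pdia4. From fed to CL316243 it grew by 1.06 for Hspa5, 0.65 for Hsp90b1, 0.56 for Xbp1, 1.29 for Dnajb9, 1.52 for Sdf2l1, 1.95 for Creld2 and 0.94 for Hyou1. In the fasted state relative to CL316243 it differed by -1.01 for Hspa5, -0.84 for Hsp90b1, -1.09 for Dnajb9, -1.76 for Pdia4, -1.75 for Sdf2l1, 1.82 for Herpud1, -2.28 for Creld2 and -1.20 for Hyou1.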

How the results depend on the processing

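Of 120 gene-by-contrast results for the 10 genes, none that was called changed direction while called under the 13 processing settings or with 1 array left out. Background correction, scaling, the authors' value table, the filter and the probe rule each changed at most 1 call: Xbp1 in genotype by fasting passed with quantile normalization (adjusted p = 0.0358) and with the authors' value table (0.0253), Xbp1 in genotype by CL316243 did not pass without the filter (0.0627), and Hyou1 passed between fasted genotypes with the mean over probes. Without wash batch or with slide in its place Xbp1 in genotype by CL316243 did not pass (0.0603 and 0.0647), and with slide neither did Hspa5 for fasted against CL316243 in CTRL (-0.39, 0.0508). With only the groups of a contrast fitted, 6 calls changed: Herpud1 and Pdia4 passed between genotypes after CL316243 (0.0258 and 0.0287), Creld2 between fasted genotypes (0.00589), Herpud1 as lower for CL316243 against fed in AAKO (0.0223) and Pdia6 for the same in CTRL (0.0460), while Xbp1 in genotype by CL316243 did not pass (0.0843).

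Within single wash batches, with 2 to 4 arrays a group, counts of called genes among the 10 moved most. In batch 1 they were 3 for CL316243 against fed in CTRL, 1 for the same in AAKO, 5 for fasted against CL316243 in CTRL and 0 for genotype by CL316243. In batch 2 they were 0 for CL316243 against fed in AAKO, 4 for genotype by CL316243 and 2 for the genotype difference of fasted against CL316243. Fewer arrays entered these fits. Counts over all genes fell too: from 5952 to 2977 (batch 1) and 1510 (batch 2) between genotypes after CL316243, from 5611 to 2100 and 1623 for CL316243 against fed in CTRL, from 7625 to 4684 and 2287 for the same in AAKO, from 8160 to 5101 and 3132 for genotype by fasting, from 2628 to 458 and 480 for genotype by CL316243, and from 7718 to 4744 and 3053 for the genotype difference of fasted against CL316243. In batch 1 they fell from 10620 to 5997 for fasting in CTRL and from 8989 to 4551 for fasted against CL316243 in CTRL, and in batch 2 from 11922 to 7821 between fasted genotypes. Pathway list calls between genotypes after CL316243 fell from 50 to 27 and 28, and in genotype by CL316243 from 32 to 6 and 14.

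Between fed genotypes the 19 calls over all genes became 1 and 0 within the batches and 3 with only these groups fitted. Leaving out CTRL fed replicate 4 gave 33, and counts fell to 10 when CTRL fed replicate 1 or 3 or AAKO fed replicate 1 was dropped, to 8 when CTRL fed replicate 5 was, and to 7 when AAKO fed replicate 6 was. With 1 array left out, the count among the 10 was 7 to 9 between genotypes after CL316243, 2 to 3 for genotype by fasting, 6 to 7 for genotype by CL316243 and 8 to 10 for fasted against CL316243 in CTRL, and it did not move elsewhere. Of 1800 such results 19 lost and 4 gained a call.

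Replicate numbers did not pair the mice (median correlation of deviations 0.003 over 90 pairs, 16 of them over 0.1). With the number as a replicate block, 9 of the 10 genes were called between genotypes after CL316243 (Herpud1 added), 8 for CL316243 against fed in CTRL (Pdia6 added) and 10 for fasted against CL316243 in CTRL (Herpud1 added), and no other call of the 10 changed. Normexp correction reduced the falls of Hyou1 with fasting to 1.14 in CTRL and 1.32 in AAKO. The median over all genes was -0.11 under median scaling for fasted against fed in CTRL, and -0.14 under normexp for fasted against CL316243 in AAKO.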
